A study of Rattus norvegicus with 2 samples.

Results

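Transcripts of 9 genes that make, process or carry the lipids of the skin barrier were examined in fetal rat skin: Abca12, Elovl4, Elovl7, Alox12b, Aloxe3, Abhd5, Ugcg, Smpd1 and Lipm. The genes were chosen as a named list, with earlier results of these data known. Each was looked up in the array files by its gene name after removing the endings that mark predicted or mapped genes. That rule found 6 of the 9 genes, on 9 probes. The other 3 carry other names in the files and were found on 1 probe each through the RefSeq accession or gene identifier: Lipm under the older name Lipl3, Abhd5 under an LOC name, and Alox12b under its accession. Together they gave 12 of 41012 gene probes, and 8 of the 9 genes were measured, among 15126 measured genes in all.

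The study compared skin of Sprague Dawley rat fetuses at E19 (day 18.5, 3 samples pooled) with skin at E16 (day 16.5, 4 samples pooled). No treatment or transgene was involved, and each stage was 1 RNA pool. The same pools were hybridised together to 2 Agilent arrays of 45018 spots, with the dyes exchanged: E19 was in Cy5 and E16 in Cy3 on 1 array, and the reverse on the other. Because the arrays share their RNA, they are 1 technical dye swap. No test between the stages was possible, and every SD given here is the SD of the 2 arrays, which holds nothing of the variation between fetuses or litters.

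The outermost epidermis keeps water in through sheets of lipid between dead, flattened keratinocytes. Keratinocytes build very long fatty acids with elongases, join them to sphingoid bases as ceramides, add glucose for transport, and load the product into lamellar granules through the transporter encoded by Abca12. Lipoxygenases then oxidise the linoleate of these ceramides so that they can be bound to protein, and enzymes outside the cell release ceramides from glucosylceramide and sphingomyelin. In the rat this barrier forms in the last days before birth. Loss of several of these genes causes ichthyosis, a scaling skin disease, in humans.

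The bases just upstream of the annotated transcription start are shown for the 4 genes with the largest E19 over E16 ratios in these pools, Elovl7, Lipm, Abca12 and Abhd5. The windows come from RefSeq on build GRCr8 and were given for 8 of the 9 genes. For Elovl7 the annotated start itself reads ATG, as a coding sequence begins, so transcription may start elsewhere. Each line holds 120 bases 5′ to 3′ on the strand of the gene, ending at the base before the start. They lie at chr2:41562742-41562861 (plus strand) for Elovl7, chr1:241031262-241031381 (plus) for Lipm, chr9:80445341-80445460 (minus) for Abca12 and chr8:130877752-130877871 (plus) for Abhd5. Capitals mark a match to the AP-2 motif GCCNNNGGC, found in Abhd5 with its first base at -29.
Elovl7: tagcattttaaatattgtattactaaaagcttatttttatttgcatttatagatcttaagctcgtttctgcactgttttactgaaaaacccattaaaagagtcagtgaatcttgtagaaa
Lipm: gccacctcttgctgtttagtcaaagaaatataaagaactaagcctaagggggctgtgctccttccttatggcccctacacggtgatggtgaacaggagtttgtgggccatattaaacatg
Abca12: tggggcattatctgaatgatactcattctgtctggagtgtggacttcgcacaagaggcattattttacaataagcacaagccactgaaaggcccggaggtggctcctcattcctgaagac
Abhd5: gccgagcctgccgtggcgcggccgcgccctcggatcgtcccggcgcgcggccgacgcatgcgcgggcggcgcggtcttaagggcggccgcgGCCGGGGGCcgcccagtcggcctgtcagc

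The windows at these 4 annotated starts have little base composition in common, and that of Elovl7 may not lie at a transcription start. Over the whole window, 250 bases before to 50 after the start, Elovl7 held 35.0% G and C with 5 CpG, and Lipm held 41.7% with 3 CpG. Abca12 held 47.3% with 6 CpG, against 73.0% with 46 CpG in Abhd5. The median of all 33469 windows in the table was 51.7% with 7 CpG, so 3 of the 4 lie below it and Abhd5 lies in a CpG-dense window. Elovl4 was CpG-dense as well, with 33 CpG, and Alox12b, Smpd1 and Aloxe3 held 15, 11 and 10. The annotated start of Elovl4 also reads ATG, so the limit given for Elovl7 holds for it too.

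Of the 8 windows, 2 held the AP-2 motif on either strand, Abhd5 at -29 and Alox12b at -61, against 15.1% of all windows. The AP-1 motif TGANTCA was in 0 of the 8 and in 7.33% of all windows. The grainyhead-like motif AACNGGTT was in 0 of the 8 and in 2.10% of all windows. The AP-1 and AP-2 motifs read the same on both strands apart from the free bases, the grainyhead-like motif does not, and matches are given as a description of these windows.

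All 8 measured genes read higher in E19 than in E16 on both arrays, and 6 of them did so by at least 2-fold on both: Elovl7, Lipm, Abca12, Abhd5, Aloxe3 and Elovl4. Among all measured genes, 4.11% (622 of 15126) passed this limit towards E19 and 3.71% (561) passed it towards E16. No gene of the 9 passed it towards E16. By gene name alone, 4 of 6 passed this limit. The median log2 ratio of E19 over E16 was 1.53 for the 8 genes, a 2.88-fold difference, against 0.02 for all measured genes, whose quartiles were -0.22 and 0.27. Being above 0 on both arrays is common on its own, since 42.0% of all measured genes were. The list was chosen with earlier results of these data known, so the comparisons with all measured genes are a description and no test.

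**Figure D1:**
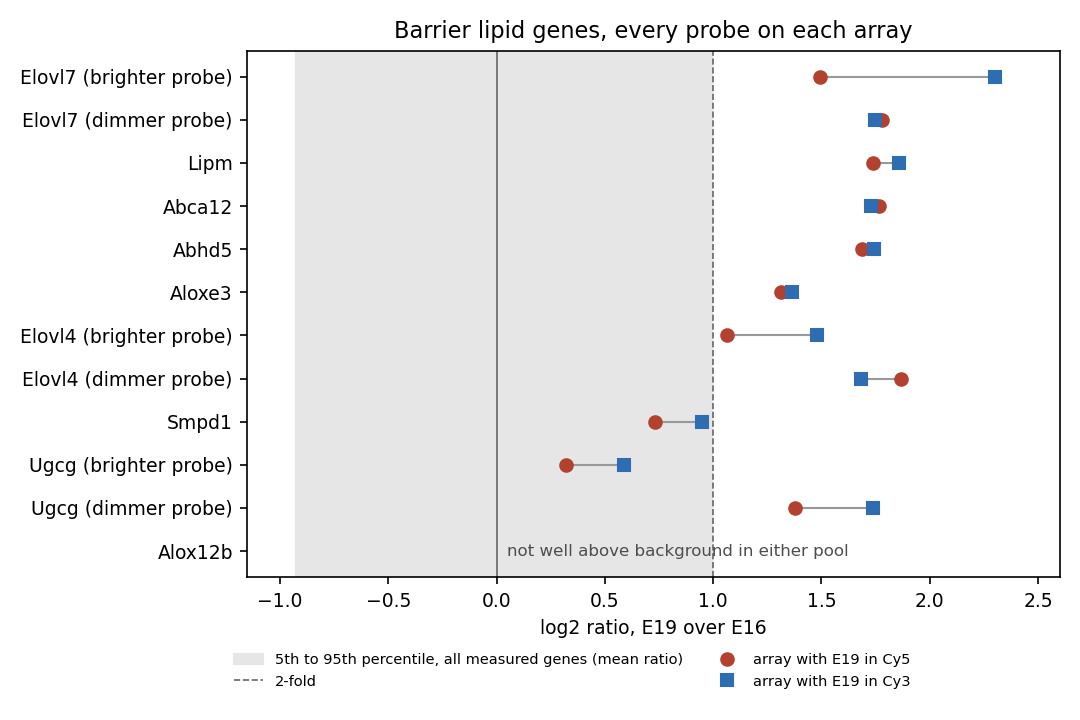
Log2 ratio of E19 over E16 for each probe of the barrier lipid genes, with the array carrying E19 in Cy5 as circles and the array carrying E19 in Cy3 as squares. The grey band spans the 5th to 95th percentile of all measured genes and the dashed line marks 2-fold. Probes of Elovl7, Lipm, Abca12, Abhd5, Aloxe3 and Elovl4 lie beyond 2-fold on both arrays, Smpd1 and the brighter Ugcg probe do not, and Alox12b was not well above background.

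Abca12 encodes the transporter that loads glucosylceramide into lamellar granules, and in humans its loss causes harlequin ichthyosis. Its level in log2 normalised intensity was 13.80 and 13.72 in the E19 pool, against 12.03 and 11.99 in the E16 pool, the array with E19 in Cy5 first. The 2 readings of each pool come from the same RNA, and the log2 ratios on the arrays were nearly identical, at 1.77 and 1.73. The log2 ratio was 1.75 ± 0.03, a 3.36-fold higher level in E19, and 161 of the 15126 measured genes (1.06%) had a larger ratio. Because the samples were bulk skin, a larger share of lipid-producing cells and more RNA per such cell cannot be told apart here, for this gene or the others.

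Both elongases of the list were higher in E19. Elovl4 makes the ultra-long fatty acids of acylceramides, the lipids most typical of the epidermis, and Elovl7 is a relative that lengthens fatty acids of shorter chain. Each had 2 probes on the arrays. The brighter Elovl7 probe read 14.96 and 15.69 in the E19 pool, against 13.46 and 13.38 in the E16 pool, a log2 ratio of 1.90 ± 0.57. This was the largest ratio of the 9 genes, with 115 measured genes (0.760%) above it, and also the ratio on which the arrays differed most, at 1.49 and 2.30, the second with E19 in Cy3. The median SD over all measured genes was 0.11. The dimmer Elovl7 probe read 10.25 and 10.24 in the E19 pool, against 8.47 and 8.49 in the E16 pool, a log2 ratio of 1.76 ± 0.02. Both probes therefore place Elovl7 more than 2-fold higher in E19 on each array.

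Elovl4 gave the same direction on both probes with different sizes. The brighter probe read 14.78 and 15.28 in the E19 pool, against 13.72 and 13.80 in the E16 pool, a log2 ratio of 1.27 ± 0.30 or 2.41-fold. The dimmer probe read 12.60 and 12.47 in the E19 pool, against 10.73 and 10.79 in the E16 pool, a log2 ratio of 1.78 ± 0.13 or 3.42-fold. On the array with E19 in Cy5 the brighter probe read 1.06, just past the 2-fold limit of 1. That call was lost under both other ways of centring the arrays, where the mean ratio was 1.06 on the spike-in RNAs and 1.23 with median centring.

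Of the lipoxygenase pair, only Aloxe3 could be measured. Alox12b and Aloxe3 encode the enzymes that act one after the other on the linoleate of acylceramides, and in humans both are ichthyosis genes. Aloxe3 read 14.13 and 14.21 in the E19 pool, against 12.82 and 12.85 in the E16 pool. Its log2 ratio was 1.34 ± 0.04, or 2.53-fold, and 388 measured genes (2.57%) lay above it. Its call was lost with median centring in place of loess, where the mean ratio was 1.29. The single Alox12b probe was not well above background in either pool on either array. Its uncorrected intensities were 83.5 and 46.3 in the E19 pool, beside local backgrounds of 58.5 and 39.5, and 41.8 and 71.4 in the E16 pool, beside 42.0 and 65.0. No ratio is given for it, and these readings do not show that Alox12b was absent.

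The genes of lipid release, Abhd5 and Lipm, were among the steadiest of the list. Abhd5 encodes a cofactor that activates lipases at lipid droplets, and its loss in humans gives an ichthyosis with stored triglyceride. Its level was 11.40 and 11.31 in the E19 pool, against 9.72 and 9.57 in the E16 pool, a log2 ratio of 1.71 ± 0.04 or 3.28-fold. Lipm encodes a lipase known in humans from the uppermost living epidermis. Its level was 12.71 and 12.85 in the E19 pool, against 10.97 and 11.00 in the E16 pool, a log2 ratio of 1.80 ± 0.08 or 3.47-fold. By the brightest probe, these and Abca12 were the genes that stayed past a 3-fold limit on both arrays. Of all measured genes, 1.18% passed it towards E19. The dimmer probes of Elovl7 (1.78 and 1.75) and Elovl4 (1.87 and 1.68) passed it as well. Larger ratios were found for 170 measured genes (1.12%) in the case of Abhd5 and 146 (0.965%) in the case of Lipm.

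By the brightest probe of each measured gene, the sphingolipid enzymes Smpd1 and Ugcg had the smallest ratios. Smpd1 encodes acid sphingomyelinase, which makes ceramide from sphingomyelin. It read 15.99 and 16.27 in the E19 pool, against 15.26 and 15.32 in the E16 pool, a log2 ratio of 0.84 ± 0.15 or 1.79-fold. It read higher in E19 on both arrays, as did 42.0% of all measured genes, but neither array reached 2-fold. A larger ratio was found for 1001 measured genes (6.62%). At a limit of 1.5-fold on both arrays Smpd1 was also counted as higher in E19, as were 9.49% of all measured genes.

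Ugcg encodes glucosylceramide synthase, which adds the glucose before transport, and its value depended on the probe. The brighter probe read 13.31 and 13.72 in the E19 pool, against 13.00 and 13.13 in the E16 pool, a log2 ratio of 0.45 ± 0.19 or 1.37-fold. The dimmer probe read 10.81 and 10.98 in the E19 pool, against 9.43 and 9.24 in the E16 pool, a log2 ratio of 1.56 ± 0.25 or 2.94-fold. The mean over both probes was 1.01 and did not reach 2-fold on both arrays. Both probes read higher in E19 on both arrays, and the size of the difference is not settled by them.

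**Figure D2:**
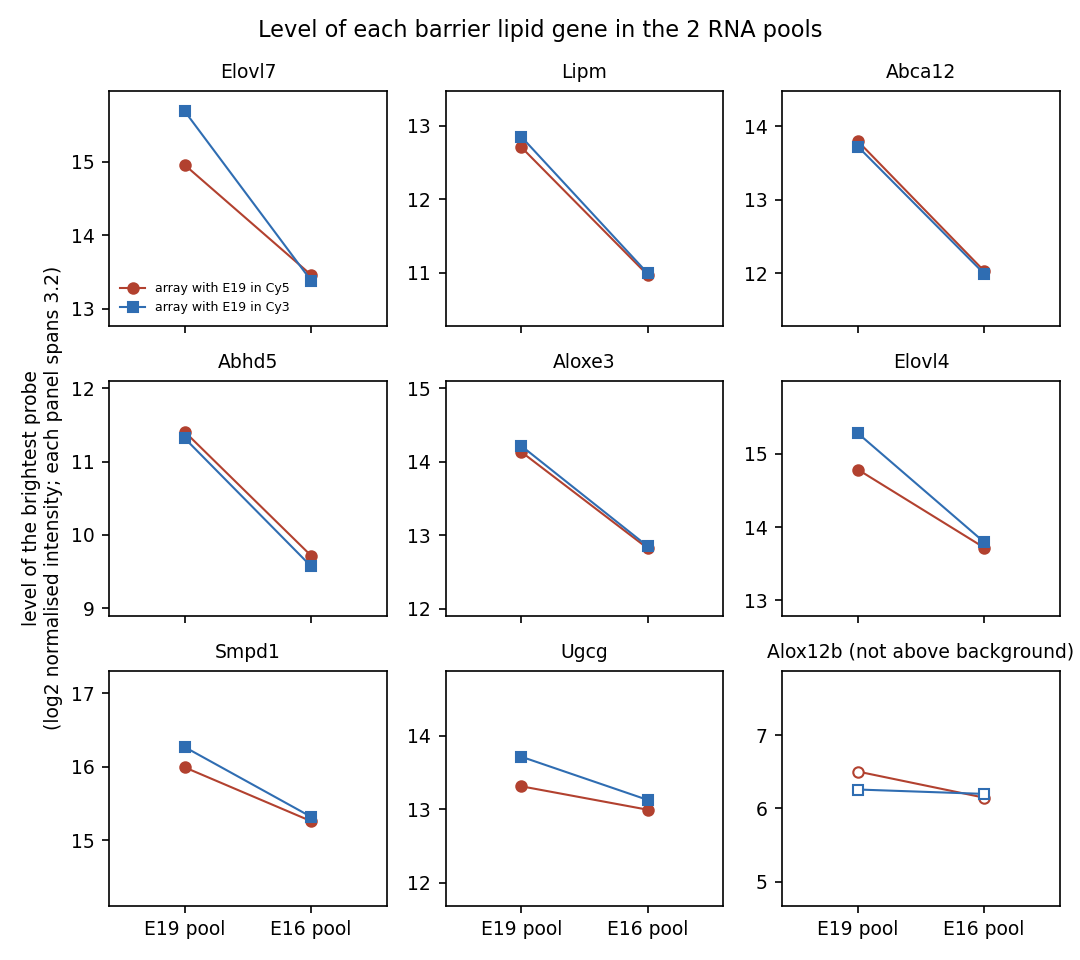
Level of the brightest probe of each gene in log2 normalised intensity, with the E19 pool on the left and the E16 pool on the right of each panel and a line for each array. Every panel spans the same log2 range, so slopes can be compared but heights of different genes cannot. Elovl7, Elovl4, Smpd1 and Ugcg separate between arrays mainly in the E19 pool, and Alox12b (open symbols) was not well above background.

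Probes of the same gene were set beside each other for the 3 genes that had a pair. By the coordinates in the array files, whose build the files do not name, the probe starts were 5801 bases apart in Elovl4, 3528 in Ugcg and 1990 in Elovl7. In all 3 the brighter probe was the downstream one. The mean log2 ratios of a pair differed by 0.50 in Elovl4 and by 0.14 in Elovl7, and in Ugcg they were 0.45 and 1.56. Among 3616 genes with several measured probes the median such range was 0.18. A range larger than that of Ugcg was found in 2.38% of those genes, larger than that of Elovl4 in 12.3% and larger than that of Elovl7 in 59.0%. Of 149 genes with some probe at least 2-fold higher in E19, 86 had another measured probe that was not.

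The authors' deposited table holds 1 ratio for each sequence, combined from the same arrays in a way the sources used here do not give. Counts from it apply the 2-fold limit to that 1 ratio, which is not the rule of 2-fold on both arrays. In the authors' deposited table Elovl7 was 4.05-fold, Abhd5 3.56-fold, Lipm 3.55-fold and Abca12 3.34-fold higher in E19. The authors' deposited table gave 2.83-fold for Elovl4, 2.48-fold for Aloxe3 and 1.79-fold for Smpd1. Its 1.89-fold for Ugcg lies between the values of the Ugcg probes. For Alox12b the authors' deposited table lists 1.68-fold, from a probe that was not well above background here.

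Other genes of the same pathways were read from 8 lists of 127 genes, of which 109 were measured. Of these 109, 22 passed 2-fold on both arrays towards E19 and 0 towards E16, beside 4.11% and 3.71% of all measured genes. These shares of all measured genes apply to each list count below. The median log2 ratio of the 109 was 0.55, against 1.53 for the 8 genes above and 0.02 for all measured genes. The lists too were chosen with earlier results of these data known.

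Acylceramide and ceramide synthesis had 10 measured genes, of which 2 passed 2-fold towards E19, with a median of 0.57. They were Degs2, which hydroxylates the sphingoid base of skin ceramides (1.68 ± 0.23), and Cyp4f39, the rodent counterpart of the human enzyme that hydroxylates ultra-long fatty acids (1.45 ± 0.11). Cers3, the ceramide synthase known for ultra-long chains, had no probe matched by name here. Glucosylceramide and sphingomyelin turnover had 16 measured genes, of which 3 passed, with a median of 0.38. These were the ceramidases Asah2 (1.32 ± 0.36) and Acer1 (1.26 ± 0.33) and the glycolipid transfer protein gene Gltp (1.19 ± 0.20). Centred on the spike-in RNAs this list had 0 genes past 2-fold, and with median centring it had 1. Of all measured genes, 4.11% passed 2-fold towards E19. Smpd1 and the brighter Ugcg probe were below 2-fold, while the dimmer Ugcg probe passed it on both arrays (1.38 and 1.74).

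Fatty acid elongation and activation had 15 measured genes, of which 2 passed 2-fold towards E19, with a median of 0.18. The acyl-CoA synthetase gene Acsl1 had a log2 ratio of 1.90 ± 0.64 and the elongase gene Elovl1 1.17 ± 0.11. Elovl3 was not well above background. Lipoxygenases and their partners had 9 measured genes, of which 2 passed, with a median of 0.57. These were the lipoxygenase gene Alox15b (1.72 ± 0.12) and Ephx3, an epoxide hydrolase gene (1.15 ± 0.13).

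None of the 10 measured ABCA and ABCG transporters, relatives of Abca12, reached 2-fold on both arrays in either direction, and their median was 0.18. The largest ratio in size was that of the cholesterol exporter gene Abca1, at 1.06 and 0.94 on the 2 arrays. With Feature Extraction's processed signals 1 gene of this list passed towards E19, as did 1 in the authors' deposited table. Abca12 read 1.77 and 1.73 on the arrays.

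Lipases, ABHD proteins and lipid droplet partners had 19 measured genes, of which 5 passed 2-fold towards E19, with a median of 0.90. The largest ratios were those of the hormone-sensitive lipase gene Lipe (1.83 ± 0.17), the lipid droplet coat gene Plin1 (1.79 ± 0.01) and Lipk, a relative of Lipm (1.51 ± 0.16). Lipe and Plin1 are also markers of fat cells. The count of 5 became 10 with Feature Extraction's processed signals, 11 in the authors' deposited table and 3 with median centring. Cholesterol synthesis and sulfation had 14 measured genes, with a median of -0.09 and 2 that passed. Both belong to cholesterol sulfate metabolism: the sulfatase gene Sts (1.77 ± 0.14) and the sulfotransferase gene Sult2b1 (1.31 ± 0.28).

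Barrier regulators had 16 measured genes, of which 6 passed 2-fold towards E19, with a median of 0.99. The nuclear receptor gene Pparg, known from both fat cells and epidermis, had the largest ratio (2.18 ± 0.00), followed by the transcription factor genes Cebpa (1.47 ± 0.26) and Klf4 (1.46 ± 0.11). Klf4 is needed for the skin barrier in mice. The count of 6 became 3 with median centring and 12 in the authors' deposited table.

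**Figure D3:**
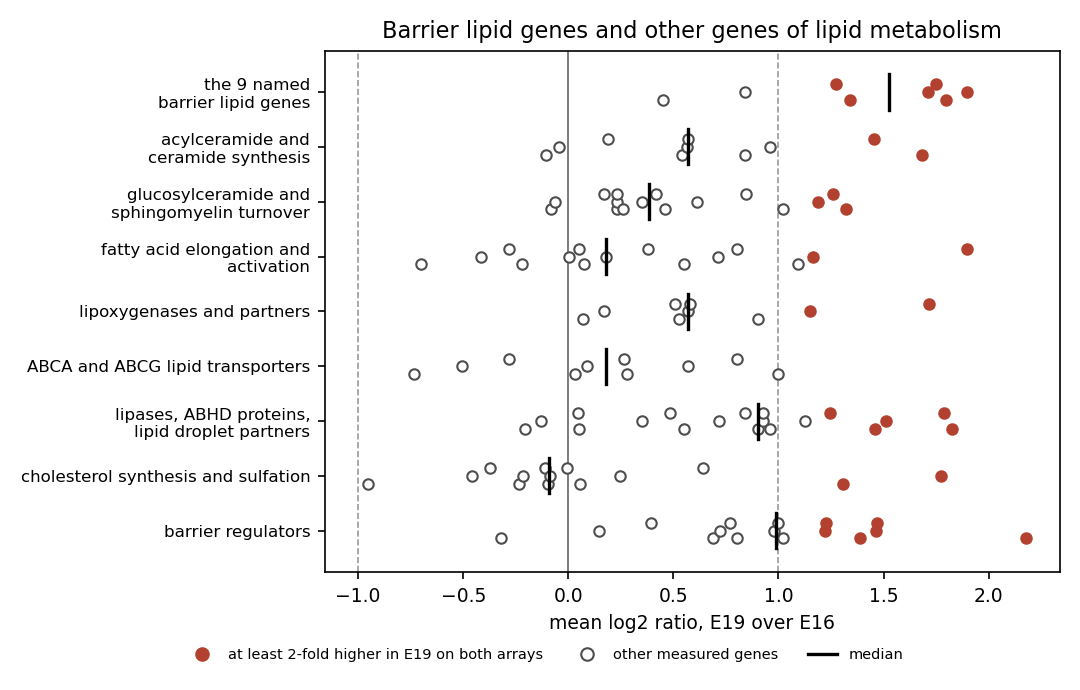
Mean log2 ratio of E19 over E16 for the measured barrier lipid genes (top) and for the measured genes of 8 other lists, with a black bar at each median. Filled points passed 2-fold towards E19 on each array: 6 of 8 barrier lipid genes and 22 of 109 genes of the other lists. Of all measured genes, 4.11% passed it towards E19. No plotted gene passed it towards E16.

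Markers of several cell types differed between the pools as well, not all in the same direction. Of 13 measured cornifying keratinocyte markers, 12 passed 2-fold towards E19, led by Tgm3 (2.65 ± 0.31) and Klk7 (2.25 ± 0.31), and their summed intensity was 1168110 to 1409380 in E19 and 231561 to 567259 in E16. Krt1 read 2.89 on the array with E19 in Cy5 but 0.69 after the dye swap. Of 7 basal keratinocyte markers, 2 were higher in E19, Lamb3 (1.13 ± 0.01) and Krt5 (1.11 ± 0.02), with a list median of 1.11 and sums of 554858 to 584952 in E19 and 177677 to 342138 in E16. Krt14, named after its values were seen, had the largest mean ratio of that list but its arrays disagreed, at 3.27 where E19 was in Cy5 and 0.74 after the swap, and Dst read -0.28 ± 0.19. Keratinocyte markers were thus measured in both pools, as the tissue label implies. Col17a1 was not well above background, and Lor and Trp63 had no probe matched by name here. Of 6 periderm and simple epithelium markers, 2 were higher in E19, Krt17 (1.65 ± 0.30) and Krt13 (2.15-fold), with sums of 26693 to 28940 in E19 and 25110 to 27649 in E16. The means of the other 4, Krt4, Krt8, Krt18 and Krt19, lay between -0.27 and -0.10, and the list median was -0.13.

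All 9 measured adipocyte markers were higher in E19, led by Adipoq (4.87 ± 0.14) and Fabp4 (4.81 ± 0.01), and their summed intensity was 98282 to 100727 in E19 and 7001 to 8771 in E16. Lep was not well above background. Of 6 macrophage markers, 2 were higher in E19, Lyz2 (1.64 ± 0.08) and Cd163 (1.62 ± 0.05), with sums of 94274 to 99951 in E19 and 45429 to 45898 in E16. Of 6 dermal fibroblast markers only Dcn passed 2-fold towards E19 (1.36 ± 0.04). The list summed to 688897 in E19 and 305617 in E16 with E19 in Cy5, and to 581355 and 482384 after the swap. Among genes named after their values were seen, the bright collagen genes depended on the dye. Col3a1 read 1.73 with E19 in Cy5 and 0.06 after the swap, Col1a1 1.02 and 0.04, and Col1a2 1.15 and 0.30. Pdgfra read -0.31 ± 0.12. Of the sebocyte list 2 of 6 genes were measured and 0 passed, with sums of 594 to 600 in E19 and 645 to 676 in E16. The measured genes went in opposite directions, Fads2 at -0.70 ± 0.08 and Soat1, named after its value was seen, at 0.19 ± 0.02. The list's defining markers Mc5r and Awat2 were not well above background, and Awat1 and Scd1 had no probe matched by name here. The part of these cell types in the barrier lipid ratios was not tested.

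In gene order on the GRCr8 assembly, the 3 protein-coding genes on either side of each barrier lipid gene were read as well. Of 37 such neighbours measured, 3 passed 2-fold towards E19 (8.11%) and 0 towards E16, and the median log2 ratio of the 37 was 0.14. Of all measured genes, 4.11% passed the limit towards E19. The share of the neighbours rests on 3 genes, of which Alox15b and Lipk were also counted in the pathway lists above. Alox15b is the next gene after Alox12b, which itself lies on the far side of 1 ribosomal protein-like gene from Aloxe3. Lipk lies in the lipase cluster that holds Lipm, separated from it by Lipn. Hsdl2, a hydroxysteroid dehydrogenase-like gene named here after its value was seen, is the third gene after Ugcg (1.12 ± 0.08). No measured neighbour of Abca12, Elovl4, Elovl7, Abhd5 or Smpd1 passed the limit towards E19.

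The ratios were recomputed under the other ways of processing the arrays. All 8 measured genes stayed above 0 in the 13 settings that gave each gene a ratio. Elovl4 and Aloxe3 changed side of the 2-fold limit under other centring, the value of Ugcg changed with the choice of probe, and that of Elovl7 changed with the array.

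**Figure D4:**
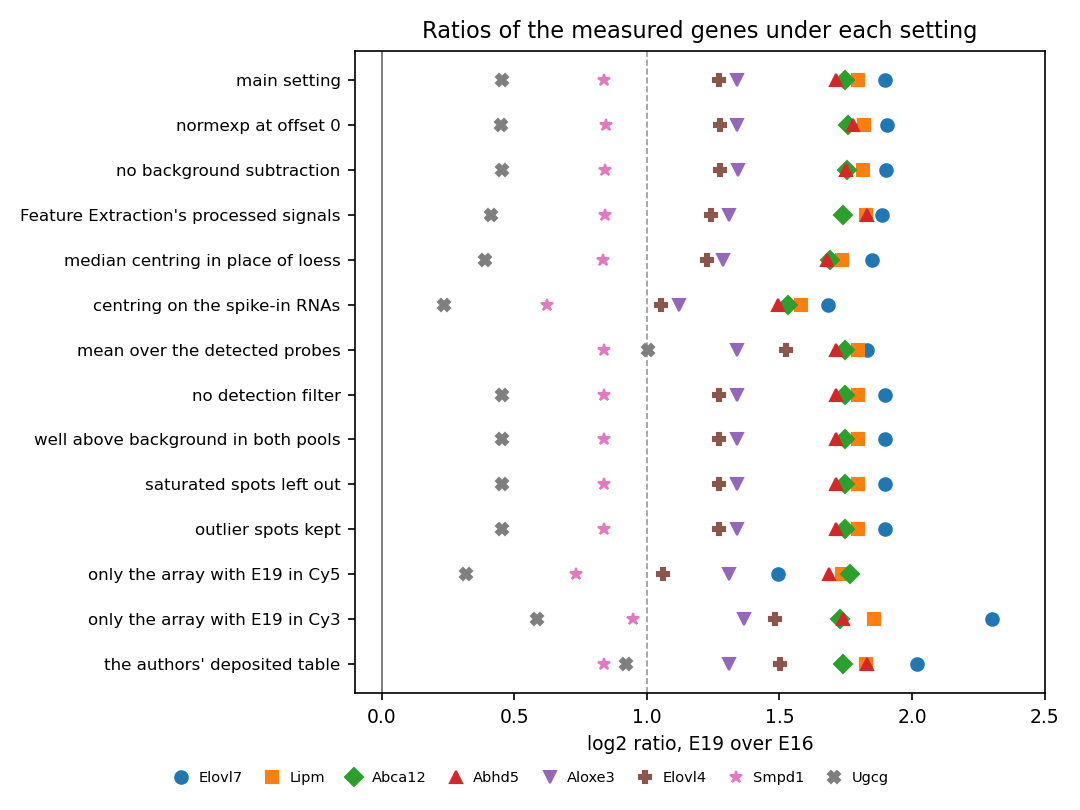
Mean log2 ratio of E19 over E16 of the 8 measured genes under each way of processing the arrays, with 1 symbol per gene and the 2-fold limit dashed. All points lie above 0. Ugcg moves most in proportion, between 0.24 with spike-in centring and 1.01 averaged over its probes, and Elovl7 lies at 1.49 and 2.30 on the single arrays.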

How the data were processed

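Both arrays were read with Agilent Feature Extraction 9.5.1.1, per the file headers, and the deposited files give mean spot intensity and local background for each dye. Ratios in the authors' deposited table are log10 values for each sequence and were converted to log2. Its direction was read from the array with E19 in Cy5 (r = 0.90 across genes).

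In limma 3.58.1 (R 4.3.3), background was corrected with normexp (offset 50), and loess was run per array, giving control spots weight 0. Outlier spots were left out. Ratios were turned to E19 over E16, and probe spots and then arrays were averaged. Levels are log2 values after Aquantile normalisation. Later steps used Python 3.11.15 with pandas 2.3.3.

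A gene was measured when a probe was well above background in at least 1 pool on both arrays, and its brightest probe was used. A gene was called at 2-fold or more in the same direction on both arrays. Probe names were updated through RefSeq, and 16990 of 41012 probes had no gene name. Of the 43379 spots per array that were not control spots, 71.5% to 74.3% were well above background per channel and at most 15 were saturated. No spot of the 9 genes was saturated or left out. The number of arrays limits the precision. The steps were tested on simulated data.

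The genes and lists were chosen with earlier results of these data known. From each pathway list up to 3 called genes with the largest ratios were named, from each marker list up to 2 and Krt1.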

Additional observations from a re-analysis of the deposited data

How the results depend on the processing

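Each of the 8 measured genes lay above 0 in all 13 settings that gave a ratio of its own. Of 104 such values, 91 moved by less than the SD of the 2 arrays and 13 by more, and 0 changed sign. A single-array value always lies within that SD of the mean, so such values could not count as moved. Dropping the detection filter, requiring both pools, leaving out saturated spots and keeping outlier spots each repeated the main values. The 91 therefore do not measure how stable the ratios are. The count of 6 genes at least 2-fold higher in E19 became 3 at a 3-fold limit. It was 5 with spike-in centring, which lost Elovl4, and 4 with median centring in place of loess, which lost Elovl4 and Aloxe3. The 10 spike-in RNAs had a mean log2 ratio of 0.22, and centring on them lowers every ratio by that amount, which puts the medians of the elongation and the ABCA and ABCG lists below 0. The median of the 8 genes was 1.31 with spike-in centring and 1.34 with no detection filter, which adds Alox12b. It was 1.30 over the genes found by name alone, an alternative chosen after seeing the data. On single arrays the count was 6 and 6, and the median was 1.40 to 1.61.

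Over all genes, the 622 called towards E19 and 561 towards E16 became 1034 and 899 when Feature Extraction's processed signals were used, 368 and 446 with median centring, 396 and 820 with spike-in centring, 1436 and 1156 at 1.5-fold, 179 and 235 at 3-fold, and 1225 and 1012 in the authors' deposited table. On single arrays they were 751 to 787 and 689 to 694. The counts from the deposited table rest on 1 combined ratio per sequence, so they do not follow the rule of 2-fold on both arrays. Of 240 counts for the pathway lists, 206 stayed within 1.5 times and 34 did not. In the main setting every list had 0 genes towards E16, and 0 against 0 was counted as unchanged. The settings named above as repeating the main values repeated these counts too. The 206 therefore do not measure how stable the counts are. With either other centring, 1 gene in place of 2 was called towards E19 in the elongation, lipoxygenase and cholesterol lists, and the elongation list also had 1 with processed signals. Ugcg was at 0.92 in the authors' deposited table and at 1.01 averaged over its probes, against 0.45. The cause was not tested. No paired analysis was possible because each stage was 1 RNA pool.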

Other observations

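Among neighbours that did not reach 2-fold on both arrays, and named after their values were seen, Topaz1, the gene next to Abhd5, had a log2 ratio of 1.08 ± 0.20. Bckdhb, which encodes a subunit of branched-chain keto acid dehydrogenase and lies near Elovl4, was at 0.85 ± 0.04, and Ankrd22, next to Lipm, was at 0.84 ± 0.14. Apbb1, next to Smpd1, was at -1.20 ± 0.29, and Rab3c, near Elovl7, was at -1.06 ± 0.23. Both were lower in E19, while Smpd1 and Elovl7 read higher there.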
